A study of Drosophila melanogaster with 6 samples.

Results

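Untreated S2 cells were measured on 2 of the 6 arrays of the series, the replicates 1 and 2 whose titles name untreated DGRC S2 cells; the arrays were chosen by title, with no measured value used. S2 is an established cell line made from late embryos of Drosophila melanogaster, here the stock of the Drosophila Genomics Resource Center, grown in M3 medium with bacto-peptone, yeast extract and fetal bovine serum. The untreated cells received no double-stranded RNA (dsRNA). The other 4 arrays held the same line 96 hours after dsRNA was added: 2 mock arrays with dsRNA against β-galactosidase, the control target, and 2 NELF-depleted arrays with dsRNA against the NELF-B and NELF-E subunits of the pausing factor NELF. The labels name no mutation or transgene in any group. Total RNA was labelled from its 3′ end and hybridised to Drosophila Genome 2.0 arrays, 1 sample per array, and the deposited table gives 1 linear intensity per probe set and array. It held 18952 probe sets, of which 183 were controls, 13647 of the other 18769 were assigned to exactly 1 gene, and these read 11981 genes.

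S2 cells are known as macrophage-like cells. In the fly, blood cells fall into plasmatocytes, which engulf microbes and dead cells and lay down basement membrane, crystal cells, which carry the enzymes of melanisation, and lamellocytes, which encapsulate parasites. Plasmatocytes also sense bacterial and fungal products through the Toll and Imd pathways, which switch on antimicrobial peptide genes through NF-κB factors.

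Background on each array was set at the 95th percentile of the 17 tag control probe sets, which carry artificial tag sequences. This was an intensity of 14.28 on replicate 1 and 15.67 on replicate 2. By this rule itself 1 of the 17 tags lies above the level on each array. A gene was called above background when its probe set passed that level on both arrays, and bright when it passed the 90th percentile of all non-control probe sets on both, an intensity of 954.8 on replicate 1 and 947.7 on replicate 2. By these rules 6543 of 11981 genes (54.6%) were above background on both arrays, 939 (7.84%) on 1 array and 4499 (37.6%) on neither, and 1455 genes (12.1%) were bright. At an intensity of 100 or more on both arrays, well clear of the tags, were 5240 genes (43.7%). Probe sets bind their targets unequally, so an intensity does not order different genes by their amount of mRNA, and a probe set at background can also be one that works poorly. Pairs of values below are the deposited intensities of untreated replicates 1 and 2, in that order. Each list of genes is described by its counts, read against the shares of all genes just given, and the precision is limited by there being 2 arrays. Counts cover measured members only, and some lists were measured in part. Measured were 15 of 24 listed Notch genes, 4 of 11 histone-related genes, 7 of 13 peptidoglycan recognition proteins and 38 of 71 seminal fluid and male-specific transcripts. Of a list with more than 12 measured genes, the members named are the brightest 4 and up to 3 exceptions unless they are said to have been chosen after their values were seen.

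**Figure D1:**
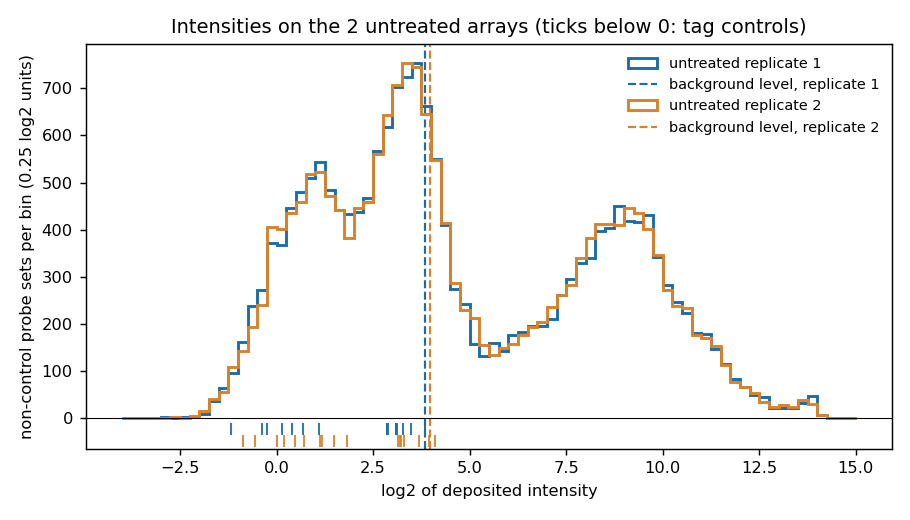
Histogram of log2 deposited intensity (x axis) against the number of non-control probe sets per bin of 0.25 log2 units (y axis) for untreated replicates 1 and 2, with dashed lines at the background levels of 14.28 and 15.67 and ticks for the 17 tag controls of each array. Both arrays show low-intensity modes at and below the tags, and a separate broad mode at intensities above the background levels.

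The 2 arrays gave nearly the same picture wherever there was signal. Over the 6543 genes above background the log2 intensities of replicates 1 and 2 correlated at r = 0.992 across genes, which are not independent replicates, the median absolute difference was 0.14 on the log2 scale, and 26 genes differed by over 2-fold. None of the 1455 bright genes differed by that much. Over the 4499 genes on neither array the correlation was 0.293 and 1828 genes (40.6%) differed by over 2-fold, so values below background are not ranked here. Among genes above background, those with the largest gap in favour of replicate 1 were Trf4-1 at 53.4 and 20.3, GEFmeso at 74.2 and 32.4, CG12947 at 44 and 20.6, kmr at 89.6 and 42.9 and CG14589 at 57.5 and 27.6. In favour of replicate 2 they were TwdlC at 14.9 and 46.4, CG12971 at 16.8 and 48.6, CG11345 at 24.8 and 70.9, Gclm at 25.6 and 72.4 and CG7330 at 22.5 and 59.9. All 10 were dim, under an intensity of 100 on both arrays.

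**Figure D2:**
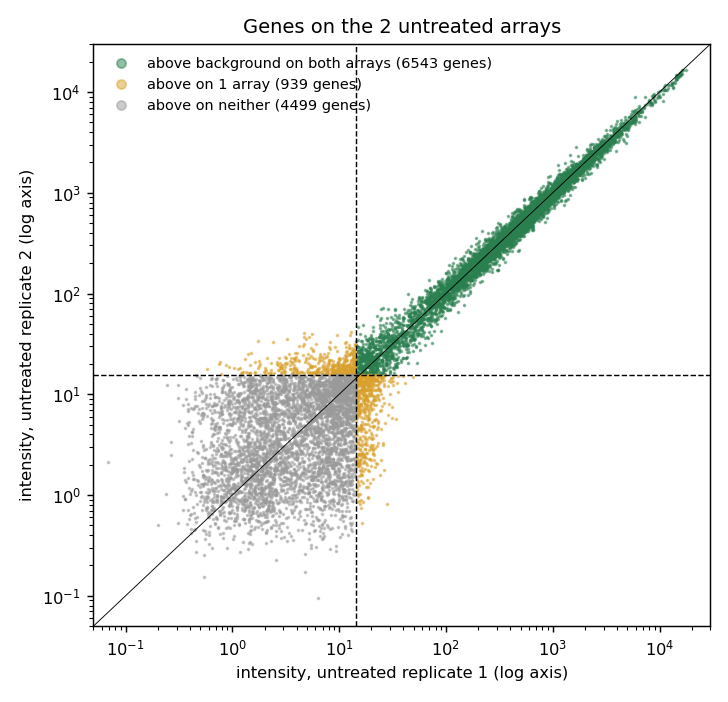
Deposited intensity of each of 11981 genes on untreated replicate 1 (x axis, log) and replicate 2 (y axis, log), coloured by call, with dashed lines at the 2 background levels and the line of equality. The 6543 genes above background on both arrays follow the line of equality, while the 4499 genes on neither array form a wide cloud (r = 0.293).

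The bright end of the untreated transcriptome was led by ribosomal protein genes. Of the 20 brightest genes by the lower of their 2 arrays, 16 encoded cytosolic ribosomal proteins. RpS18 gave 16559.5 and 16586, RpLP1 17698 and 16434, RpL41 16114 and 16404, RpS27A 15489.8 and 15492, RpL39 15718 and 15382, RpL27 16035 and 15254, RpS20 16289 and 15158 and RpS26 14720 and 14837. RpL15, RpLP2, RpL32, RpS28b, RpL23, RpS7, RpLP0 and RpS12 followed, down to RpS12 at 14190.4 and 13446. The other 4 were tsr, the actin-severing protein cofilin, at 16035 and 15924, eEF5, the translation factor known as eIF5A, at 15184 and 14878, the gene CG5953 at 15482 and 14722, and Nplp2, a neuropeptide-like precursor, at 14400.3 and 14748. Of these 20 genes 9 were read by probe sets whose suffix marks a match to several transcripts. On replicate 1 the top 1% of non-control probe sets held 26.85% of the summed intensity, and on replicate 2 they held 26.29%.

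Cytosolic ribosomal protein genes were almost all bright, 31 of 37 measured, and 35 were above background; the platform annotation gave a probe set of their own to 37 of the 89 listed. Several second copies were the exceptions. RpL10Aa at 2.19 and 0.78 and RpS5b at 9.55 and 15.4 were not above background on either array. RpS10a, at 319 and 348, RpS19b, at 265 and 242, and RpS28a, at 42.5 and 31.8, were above background but not bright; these 3 were named after their values were seen. All 69 mitochondrial ribosomal protein genes measured were at 100 or more, led by mRpL16 at 2857 and 2596, mRpS21 at 2199.8 and 2183, mRpL17 at 2155 and 1989 and mRpS5 at 1723 and 1850.5, and 18 of them were bright.

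Translation initiation and elongation factors showed the same split between general genes and some of their relatives. Of 41 measured, 35 were at 100 or more and 29 were bright, led by eEF5, by eEF1gamma at 12119.7 and 11685, by the RNA helicase eIF4A at 11078 and 11097 and by eIF1, which acts in start codon choice, at 9804 and 8889. The other 6 were not above background on both arrays, among them eIF4E3 at 1.9 and 5.76, eIF4E5 at 1.45 and 6.66 and eIF4E7 at 1.1 and 8.76, all relatives of the cap-binding protein. All 16 tRNA synthetase genes measured were at 100 or more and 10 were bright, with the double enzyme GluProRS at 3406 and 3283 and ThrRS at 2715 and 2688. On a list of ribosome biogenesis genes chosen after intensities were seen, all 21 measured were above background and 14 bright. They included fibrillarin, Fib, at 3274 and 2844, the box C/D protein Nop56 at 5393 and 4940.1 and the polymerase I subunit Polr1A at 1216 and 927, and Ns2 at 35.3 and 51.8 was the dimmest.

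The proteasome, which degrades ubiquitinated proteins, divided cleanly. All 26 standard subunits measured were bright, between 1102 and 3339, led by Prosbeta3 at 3339 and 3109, Rpn6 at 2913 and 3166, Prosbeta6 at 3188 and 2825 and Prosbeta4 at 3079.7 and 2812. Of the 14 relatives whose names end in T or R with an optional number, many of them known as testis-specific copies in the fly, 1 was above background, Rpt3R, at 200.1 and 288, while its partner by name, Rpt3, gave 1596 and 1671. Of the COP9 signalosome, which removes Nedd8 from cullins, 8 of 9 subunits were above background and 6 bright, from alien at 1847 and 2025 down to CSN7 at 709 and 737, and CSN1a, at 5.32 and 13.8, was at background next to CSN1b at 958 and 871. The V-ATPase, the proton pump of lysosomes, had 15 genes between 418 and 8664, led by Vha26 at 8628 and 8664, Vha16-1 at 7950.5 and 8303, Vha13 at 5278 and 4749.9 and VhaPPA1-1 at 4749.9 and 4552, and 16 genes no higher than 20.8, and no gene had a value between these. This division is by intensity itself, not by name. Its share above background, 16 of 31 or 51.61%, lay near that of all genes.

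Chaperones of the cytosol, mitochondria and endoplasmic reticulum were bright in untreated cells. Of 25 measured, 19 were at 100 or more and 15 bright: Hsc70-4, the constitutive cytosolic Hsp70, at 13632 and 12703, Hsc70-3, the BiP of the endoplasmic reticulum, at 8642 and 8836, mitochondrial Hsc70-5 at 8382 and 7774, and CCT5 at 5822 and 5241. All 8 subunits of the CCT ring, which folds actin and tubulin, were bright, between 2995 and 6578. Heat-inducible Hsp68, at 308 and 319, Hsp26, at 533 and 397, and Hsp27, at 683 and 698, were above background but not bright; these 3 were named after their values were seen. Hsp60B at 4.89 and 7.95, Hsp60C at 6.43 and 4.61 and Hsc70-2 at 3.85 and 7.65 were not above background on either array. Neither was Pdi, a disulfide isomerase gene, at 12.8 and 7.73, although ERp60, another isomerase of the endoplasmic reticulum, gave 8739.7 and 9274; this pair was named after its values were seen.

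Energy metabolism genes were above background throughout, and many were bright. Of complexes II to V of the respiratory chain, all 29 measured were above background and 26 bright, led by the ATP synthase subunits ATPsynbeta at 7259 and 8916, ATPsyngamma at 7946 and 8026, blw at 5988 and 6239 and ATPsynE at 6045 and 5204. Of complex I all 25 measured were above background and 19 bright, from ND-MLRQ at 8815 and 8328 down to ND-B12 at 61.5 and 57.2. In the citric acid cycle 8 of 11 were bright, with Ogdh at 2782 and 2795, Scsalpha1 at 2737 and 2535, mAcon1 at 2079 and 1999 and Idh at 1984 and 1773, and the lowest was Idh3b at 462 and 368. Glycolysis had all 10 measured genes at 100 or more. Enolase, Eno, gave 3469 and 3299, Gapdh1 2691 and 2730.4, aldolase, Ald1, 2201 and 2092, and Pgk 1943 and 1828, while Pfk, which commits sugar to the pathway, gave 408 and 393 and the trehalose transporter Tret1-1 364 and 352.

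The S2 label was checked against blood cell markers. Of 14 plasmatocyte markers 13 were above background and 10 at 100 or more: Pxn, a peroxidase of basement membrane, at 3168 and 4214, the GATA factor srp at 2294 and 3073, its partner ush at 1836 and 1676, and Tig, a matrix ligand of integrins, at 1385 and 1511. Other markers, named after their values were seen, were the engulfment receptors crq at 828 and 1043, drpr at 769 and 827 and eater at 629 and 818. Markers often used to define larval plasmatocytes were low, however, with hemolectin, Hml, at 23.9 and 32.8, hemese, He, at 19.6 and 17.4, and NimC1 at 11 and 8.86. NimC1 was the marker of the list that was not above background. The cells thus carried most of the list, with 10 of 14 at 100 or more. These 3 surface or clotting markers were among the members with dim or no signal.

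Markers of the other blood cell classes were mixed. Of 5 lamellocyte markers 4 were above background: the actin bundler Fim at 2086 and 2708, mthl4 at 253 and 343, PPO3, the lamellocyte prophenoloxidase, at 178 and 174, and the integrin subunit ItgaPS4 at 45.7 and 44.4, while atilla, the surface marker, gave 1.36 and 1.42. Of 4 crystal cell markers PPO2, at 79.9 and 102, was above background, and PPO1 at 3.76 and 11.7, the Runx factor lz at 1.4 and 8.81 and peb at 2.21 and 3.1 were not. Among 11 blood cell transcription factors 7 were above background and 4 bright, kay, the fly Fos, at 3559.6 and 3403, srp, Stat92E at 2317 and 2303 and ush; zfh1 gave 1184 and 838 and Jra, the fly Jun, 879 and 973. The factors gcm at 2.05 and 2.58 and gcm2 at 3.26 and 4.3, which act in early plasmatocytes and glia, were not above background.

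Markers of other tissues were at background with few exceptions. None of 6 fat body, 6 gut and 3 tracheal markers measured was above background on both arrays, among them Lsp2 at 5.51 and 10.8, Fbp1 at 11.4 and 2.53, Jon25Bi at 1.43 and 14.4 and btl at 0.719 and 0.983, while Yp2, a yolk protein gene, passed on replicate 2 alone with 5.28 and 37. Of 7 muscle markers the giant sarcomere gene sls passed, at 31.7 and 18.2, and Mlc2, Tm2 and up did not. Of 9 neuron markers elav passed, at 149 and 77, and brp, nSyb, Syn and cac did not. Of 4 glia markers moody, a G protein-coupled receptor of the blood-brain barrier, passed at 760.3 and 609.5, and repo, at 9 and 6.2, did not. Over these 6 lists moody was the marker at 100 or more on both arrays. With replicate 1 as the only array of the rule, 2 muscle and 3 neuron markers passed, those above on both arrays included. With replicate 2 as the only array, 2 fat body and 2 gut markers passed. In bulk RNA, few cells with much of an mRNA and many cells with little cannot be told apart.

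**Figure D3:**
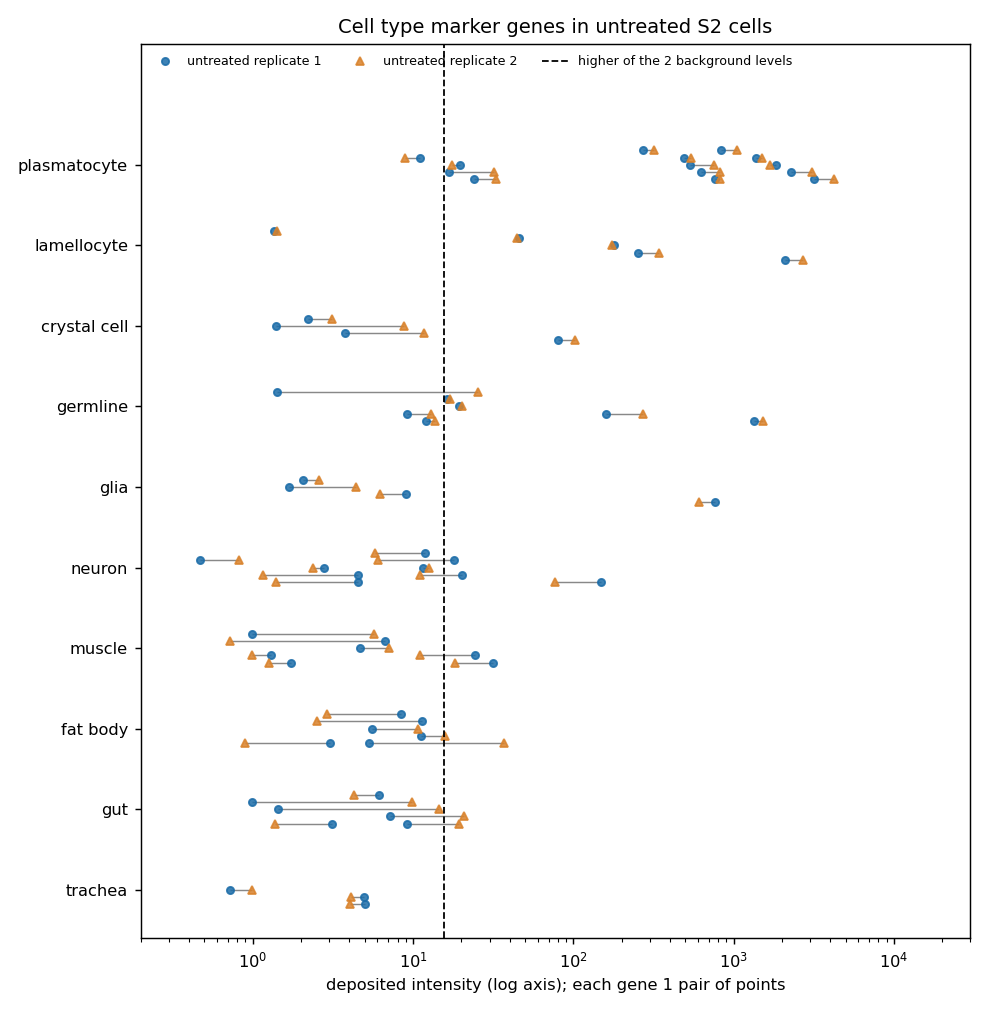
Deposited intensity (x axis, log) of each measured marker gene, by cell type (y axis), with untreated replicate 1 as circles and replicate 2 as triangles joined by a line, and a dashed line at 15.67, the higher of the 2 background levels. Plasmatocyte markers reach 4214 (Pxn, replicate 2) and 13 of 14 lie right of the line, while fat body, gut and tracheal markers lie around it or left of it.

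Some germline genes gave clear signal, although the share of the marker list above background was near that of all genes. Of 7 germline markers 4 were above background (57.14%, against 54.6% of all genes). The bright one was aub, a Piwi-family protein that binds piRNAs, at 1338 and 1531. AGO3, its partner in piRNA amplification, gave 161 and 273. Barely above background were bgcn at 19.3 and 20.1 and osk at 16.3 and 17.1, while vas at 9.16 and 12.9 and bam at 12 and 13.7 were not above it. With the highest tag control of each array as the level, 3 of the 7 markers passed. The gene piwi passed on replicate 2 alone, with 1.41 and 25.4. In the wider list of RNA interference and small RNA genes 17 of 19 were above background and 4 bright: del at 1507 and 1457, aub, krimp at 1273 and 1591, and Dcr-2, the dicer of the siRNA pathway, at 1085 and 1242. The nuclear piRNA factor rhi, which binds del in the fly germline, gave 338 and 314, and cuff gave 75.2 and 94.6; both were named after their values were seen. The exceptions were piwi and qin, at 9.39 and 13.5.

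Genes of the secretory pathway and the matrix included many bright members. On a list for entry to the secretory pathway, chosen after intensities were seen, all 27 measured genes were at 100 or more and 24 bright, led by ERp60, Hsc70-3, the oligosaccharyltransferase subunit OstDelta at 6439.8 and 6970.2 and the translocon subunit Sec61beta at 6836 and 6357. Of 15 matrix and basement membrane genes 12 were above background and 7 bright, with SPARC, a collagen-binding protein, at 11369 and 11639.7, the laminin chains LanA at 8963 and 9566 and LanB2 at 5399.8 and 5842, and Pxn. The exceptions, not above background on both arrays, were Ndg, the nidogen gene, at 2.77 and 20.4, Mp, a collagen XV/XVIII relative, at 13.7 and 8.2, and the laminin chain wb at 16 and 2.45. Among the basement membrane collagens, named after their values were seen, vkg gave 536 and 759 and Col4a1 489 and 543.

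Of 18 proteins secreted into the hemolymph 12 were above background and 5 bright. Ferritin heavy chain, Fer1HCH, gave 9446 and 8698, the chitinase-like growth factor Idgf6 6094 and 6382, glutactin, Glt, 5526 and 4891, and the thioester protein Tep4 2847 and 3219. Not above background on either array were the lipoprotein gene apolpp at 2.31 and 5.63, the transferrin Tsf1 at 9.26 and 11.3 and the clotting factor fon at 11 and 6.74. On a list of 23 lysosomal genes, chosen after intensities were seen, 19 were above background and 9 bright: the cathepsin CtsL1 at 10560.1 and 10583, the saposin precursor Sap-r at 7901 and 8096, Lamp1 at 8106 and 7472 and cathD at 4797 and 4365. The α-mannosidase LManVI at 0.662 and 0.711 and Gal at 0.804 and 0.846 were not above background on either array.

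Phagocytic receptors were selective. Of 20 scavenger and phagocytic receptors 8 were above background (40%, below the 54.6% of all genes) and 1 was bright, the hypervariable immunoglobulin receptor Dscam1 at 3722 and 3954. With crq, drpr and eater, the receptor pes gave 939.7 and 871 and NimC4 509 and 516. Of members named after their values were seen, the Nimrod genes NimC2 at 5.66 and 7.62, NimA at 7.93 and 1.53 and NimB2 at 2.76 and 4.76 were not above background on either array, and neither were the scavenger receptors Sr-CIII at 1.08 and 3.44 and Sr-CIV at 10.9 and 1.15.

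Every measured gene of the Toll and Imd pathways was above background, 21 of 21, with 18 at 100 or more and 6 bright. The Toll ligand spz gave 3604 and 3639, the NF-κB factor of the Imd pathway, Rel, 1976 and 2220.3, the ubiquitin-conjugating enzyme ben 1829 and 1991, and key, the IKKγ of the pathway, 1876 and 1809.6. Other members, named after their values were seen, were the receptor Tl at 353 and 325, the adaptors Myd88 at 242 and 180.3 and imd at 191 and 227, the kinase pll at 592 and 547, the inhibitor cact at 763 and 761 and the factor dl at 776 and 729, with Dif, the third NF-κB factor, dim at 57.5 and 65.7. Of 7 peptidoglycan recognition proteins 5 were above background and none bright, with PGRP-LA at 423 and 398 and PGRP-LF at 367 and 419.8, and PGRP-LB, an amidase, at background with 5.65 and 1.98.

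Antimicrobial peptide genes, the outputs of these pathways, were above background in 6 of 12, a share near that of all genes, and none was bright. Mtk, metchnikowin, gave 798 and 945, DptB 159.9 and 225, AttD 137 and 191, CecB 118 and 152, Drs, drosomycin, 107 and 159.7, and Drsl4 58.1 and 45.3. Def, at 14.3 and 10.7, passed on replicate 1 alone, and Drsl1, Drsl3, Drsl5 and Drsl6 were at background on both.

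Genes of DNA replication and the cell cycle were above background in 27 of 27, with 26 at 100 or more and 7 bright. The sliding clamp PCNA gave 3882 and 3168, the ribonucleotide reductase subunit RnrL 2748 and 2697, the mitotic cyclin CycB 1588 and 1937, and the helicase subunit Mcm6 1652 and 1756. The Cdc25 phosphatase twe, known for its role in meiosis, was the member under 100, at 29.7 and 31, named after its value was seen. The 4 histone-related genes measured were above background: the replacement variant His2Av at 4466 and 3878, Slbp, which binds histone mRNA, at 1794 and 1651, mxc at 313 and 304 and the centromeric histone cid at 138 and 134.

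The dosage compensation and sex determination list was above background in 15 of 15, with 13 at 100 or more. Clamp, a zinc-finger protein that guides the dosage compensation complex to the X chromosome, gave 1655 and 1857, fl(2)d 1177 and 1190, tra2 774 and 848 and tra 668 and 614. The subunit that limits dosage compensation to males, msl-2, gave 318 and 232, and Sxl, the switch gene of female identity, gave 452 and 419; these and dsx and fru were named after their values were seen. The effectors at the end of the cascade differed, dsx being dim at 27 and 23.6 and fru giving 268 and 241. Sxl and dsx were each above background in 7 of 8 alternative settings, the exception being another choice of probe sets. The arrays do not separate male from female splice forms of Sxl, tra or dsx.

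Of the general transcription machinery, all 26 Mediator subunits measured were at 100 or more and 7 bright, led by MED30 at 3020.3 and 2877, MED14 at 2235 and 2287, MED26 at 1172 and 1089.8 and MED15 at 1121 and 1086. All 13 Integrator subunits were above background, IntS11, the endonuclease, at 1939.9 and 1770.2 and IntS1 at 1265 and 1166 being bright. The pausing and elongation factors were above background in 25 of 25, with 4 bright: the elongation factor ELL, Su(Tpl), at 2864 and 2545, the FACT subunit dre4 at 2474 and 2175, the Paf1 complex subunit Ctr9 at 1104 and 1055 and the DSIF subunit Spt5 at 1027 and 1027. Of the NELF subunits, NELF-B and Nelf-E, the targets of the dsRNA on the NELF-depleted arrays, gave 332 and 306 and 344 and 402 in untreated cells, and TH1, another subunit, gave 703 and 778. The scaffold lilli of the super elongation complex was dim, at 24.6 and 25.4; these subunits were named after their values were seen.

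In JAK-STAT signalling 5 of 8 genes were above background. The receptor dome gave 311 and 294 and Stat92E 2317 and 2303, while the ligand upd2, at 6.05 and 4.74, and the receptor et, at 0.779 and 7.09, were not above background on either array, and upd1 passed on replicate 2 alone, with 3.05 and 15.9. In the Wnt and Hedgehog list 13 of the 34 members were measured, and 10 of these 13 were above background. The Wnt cargo receptor wls gave 1461 and 1614, cos 649.9 and 721, smo 458 and 655, Axn 504 and 512 and ptc 142 and 123, and the 3 exceptions were the ligands Wnt6 at 0.852 and 1.83 and hh at 1.44 and 0.337 and the Hedgehog pathway's transcription factor ci at 7.26 and 10.4. Of the BMP and activin list 12 of 18 were above background. It had the receptors put at 1772 and 1708 and sax at 1094 and 1003, the corepressor shn at 1932 and 1563 and the ligand gbb at 1377 and 1288. Read without probe sets that can match several transcripts, shn was not above background on both arrays. In the same list dpp gave 0.621 and 0.492, Actbeta 4.34 and 3.32 and the receptor wit 3.79 and 5.89. The Hedgehog receptor ptc was named after its value was seen.

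Among receptor tyrosine kinases and the insulin pathway 17 of 25 genes were above background and 3 bright: Pvr, the PDGF/VEGF receptor that blood cells depend on, at 3439 and 3777, S6k at 2761 and 2964 and Akt at 1738 and 1835. The insulin receptor InR gave 536 and 405, named after its value was seen. The receptors btl at 0.719 and 0.983, tor at 1.54 and 1.98 and Alk at 4 and 1.92 were at background, and so was Egfr at 2.08 and 6.7, also named after its value was seen. Of the Notch list 12 of 15 were above background, led by the γ-secretase subunits Psn at 1382 and 1271 and pen-2 at 1121 and 1044, by the corepressor H at 1051 and 896 and by the target gene E(spl)mbeta-HLH at 799 and 789. The target genes E(spl)mdelta-HLH, at 21.7 and 11, and E(spl)m7-HLH, at 15.8 and 8.05, passed on replicate 1 alone, and E(spl)m5-HLH, at 1.89 and 3.08, on neither.

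In the ecdysone response 13 of 24 genes (54.17%) were above background, a share close to that of all genes. ImpL2, a secreted inhibitor of insulin-like peptides, gave 8499 and 9116, MsrA 991 and 1162, the nuclear receptor Hr78 944 and 977 and Cth 697 and 660.5. Of the receptor pair, named after its values were seen, EcR gave 87.9 and 133 and usp 561 and 622. Hr3 at 0.387 and 1.46, the steroid hydroxylase sad at 0.908 and 1.22 and ImpE1 at 1.42 and 2.48 were at background. The circadian clock had 7 of 12 above background (58.33%), also near the share of all genes. Without probe sets that can match several transcripts the count was 4, because dco, vri and Pdp1 are then not measured. It had cwo at 2466 and 2380.2, the kinase dco at 2246 and 2056, cyc at 263 and 262, vri at 182 and 199 and Pdp1 at 152 and 119.7. The gene per was barely above background at 18.4 and 22.7. At background were tim at 11.1 and 1.3, Clk at 0.798 and 10.6, cry at 9.86 and 13.5 and Pdf at 2.77 and 10.8. Of the central pairs of the clock, Clk was at background and cyc was not, while tim was at background and per was little above it.

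In the apoptosis list 10 of 15 measured genes were above background, rpr and hid not being among those measured. The inhibitor Diap2 gave 1658 and 1629, the tumour necrosis factor egr 1412 and 1615, its receptor wgn 1262 and 1467 and the Bcl-2 family gene Debcl 1043 and 911. The death genes grim at 3.04 and 0.385 and skl at 5.07 and 9.4, the other tumour necrosis factor receptor grnd at 8.06 and 3.39, the caspase Damm at 5.12 and 2.93 and the Bcl-2 family gene Buffy at 5.45 and 4.18 were at background; skl and grnd were named after their values were seen. Both the ligand egr and 1 of its receptors were thus bright in untreated cells.

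Embryonic patterning genes were nearly all at background, 3 of 22 homeotic and segmentation genes being above it. The exception with strong signal was hry, hairy, a repressor of the segmentation cascade, at 4163 and 3353, while cad at 16.4 and 33.9 and eve at 17.1 and 23.1 were barely above it. The homeotic gene Antp, named after its value was seen, gave 10.1 and 11 and was not above background on either array. Of 19 cytoskeletal genes measured, 15 were above background and 9 bright, led by tsr, the non-muscle myosin light chain Mlc-c at 11683 and 10427, the general tubulin betaTub56D at 11056 and 10548 and the membrane linker Moe at 11186 and 10387. The testis tubulin betaTub85D at 1.57 and 6.04 and the muscle actin Act87E at 11.8 and 12.1 were at background, and alphaTub85E passed on replicate 1 alone, with 20.4 and 3.62. Other tissue forms, named after their values were seen, were above background, the muscle actin Act79B at 31.9 and 31.4, the maternal tubulins alphaTub67C at 16.1 and 19.3 and gammaTub37C at 490.3 and 519.8, and betaTub60D at 5695 and 5212.

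Bright members were few in the enzyme and inhibitor families below, except among the glutathione transferases. Of 34 glutathione transferases 24 were above background (70.59%, over the 54.6% of all genes) and 5 bright (14.71%, near the 12.1% of all genes). They were led by GstE6 at 5841 and 5064, GstD1 at 2806 and 2983, GstT1 at 1497 and 1493 and GstD9 at 1387 and 1212. GstE14, which acts in ecdysone synthesis, gave 0.636 and 1.45. Of 81 cytochrome P450 genes 31 were above background (38.27%, below the 54.6% of all genes), 14 were at 100 or more and 2 were bright, Cyp6a17 at 1139.7 and 1132 and Cyp6a20 at 1090.3 and 1089. Of 35 UDP-glycosyltransferases 7 were above background and 1 bright, with Ugt316A1 at 1093 and 1242 and Ugt317A1 at 417 and 451. Of 27 serpins, inhibitors of serine proteases, 10 were above background and 2 bright, Spn88Ea at 2514 and 2653 and Spn42Da at 988 and 1036, and Spn27A, an inhibitor of melanisation, gave 812 and 648. Of 10 Pgant enzymes, which start mucin-type O-glycans, 8 were above background and none bright, with Pgant6 at 922 and 955 and Pgant3 at 707 and 774.

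Families of sensory organs, cuticle, egg shell and male glands had few members with clear signal. Of 112 odorant and gustatory receptors 7 were above background and 1 at 100 or more, the sugar receptor Gr61a at 270.4 and 344. The next were Or43b at 58.4 and 39.5 and Or67b at 43 and 32.1. Of 53 ionotropic receptors 3 were above background, Ir76a at 378 and 388, Ir7a at 38.7 and 45.3 and Ir64a at 21.5 and 18.7, and of 47 odorant binding proteins 3, up to Obp44a at 56.3 and 50.4. None of the 109 cuticle proteins reached 100; 14 were above background, up to TwdlC and Cpr47Eb at 29.4 and 31.2. Of 10 chorion and vitelline membrane genes 3 passed, up to Vm26Aa at 21.6 and 20.6, of 23 Osiris genes 1, Osi19 at 19.4 and 20.4, and of 22 Jonah and trypsin proteases 4, up to Jon74E at 34.9 and 35.3. Of 38 seminal fluid and male-specific transcripts 7 passed, Sfp26Ad at 917 and 762 and Mst85C at 672 and 631 standing clear of the other 5. Of 9 nicotinic acetylcholine receptor subunits 4 passed, nAChRbeta3 at 647 and 663 and the other 3 under 50. These counts near background depend on needing both arrays, and the counts that follow use 1 array as the rule and include genes above on both. With replicate 1 as the only array, 15 odorant and gustatory receptors, 7 ionotropic receptors, 11 odorant binding proteins, 25 cuticle proteins, 5 chorion genes and 3 Osiris genes passed. With replicate 2 as the only array, 15 odorant and gustatory receptors, 6 ionotropic receptors, 25 cuticle proteins, 11 male-specific transcripts and 3 Osiris genes passed.

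**Figure D4:**
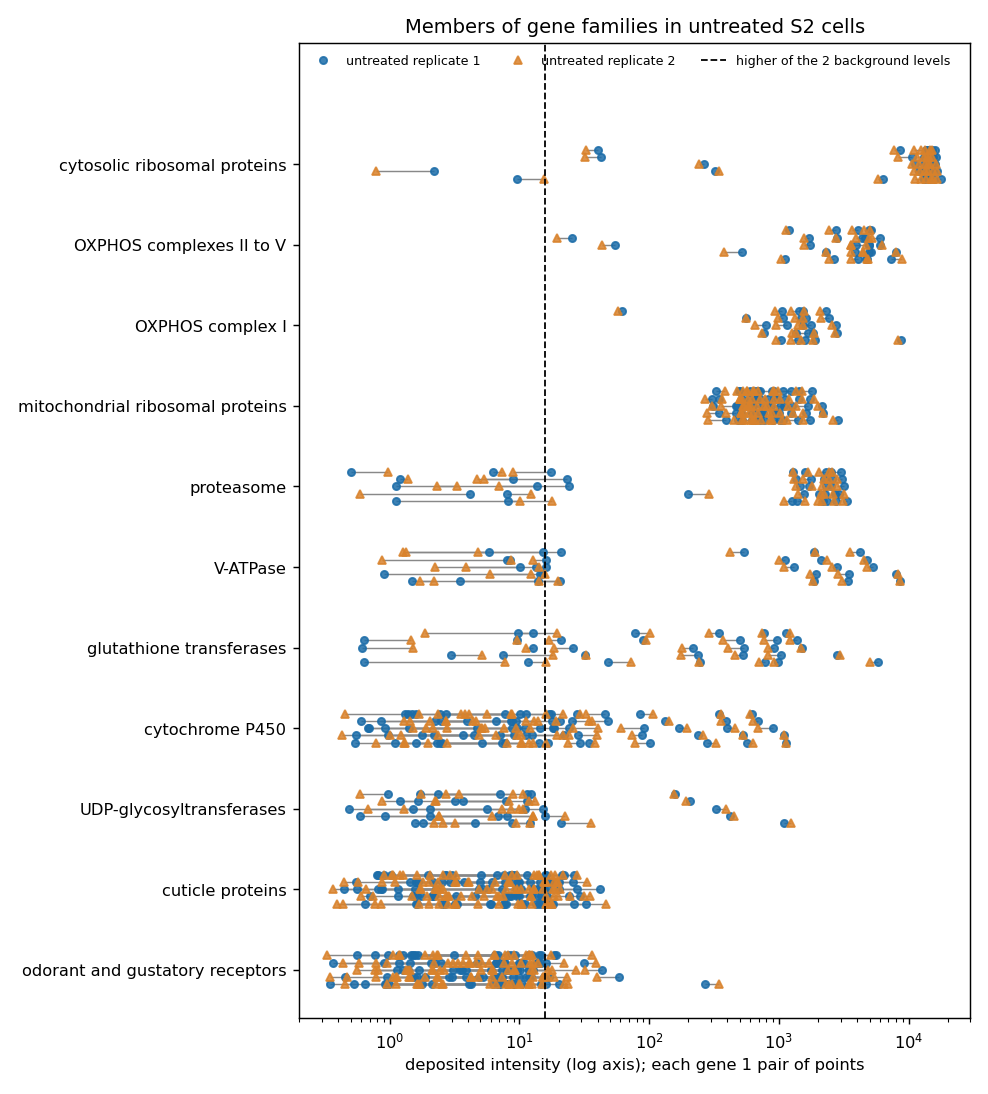
Deposited intensity (x axis, log) of each measured member of 11 gene families (y axis), with untreated replicate 1 as circles and replicate 2 as triangles joined by a line, and a dashed line at 15.67, the higher of the 2 background levels. The 26 standard proteasome subunits sit between 1102 and 3339 and most of their relatives at background, and 1 gene of the odorant and gustatory receptors, Gr61a, stands right of the others.

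**Figure D5:**
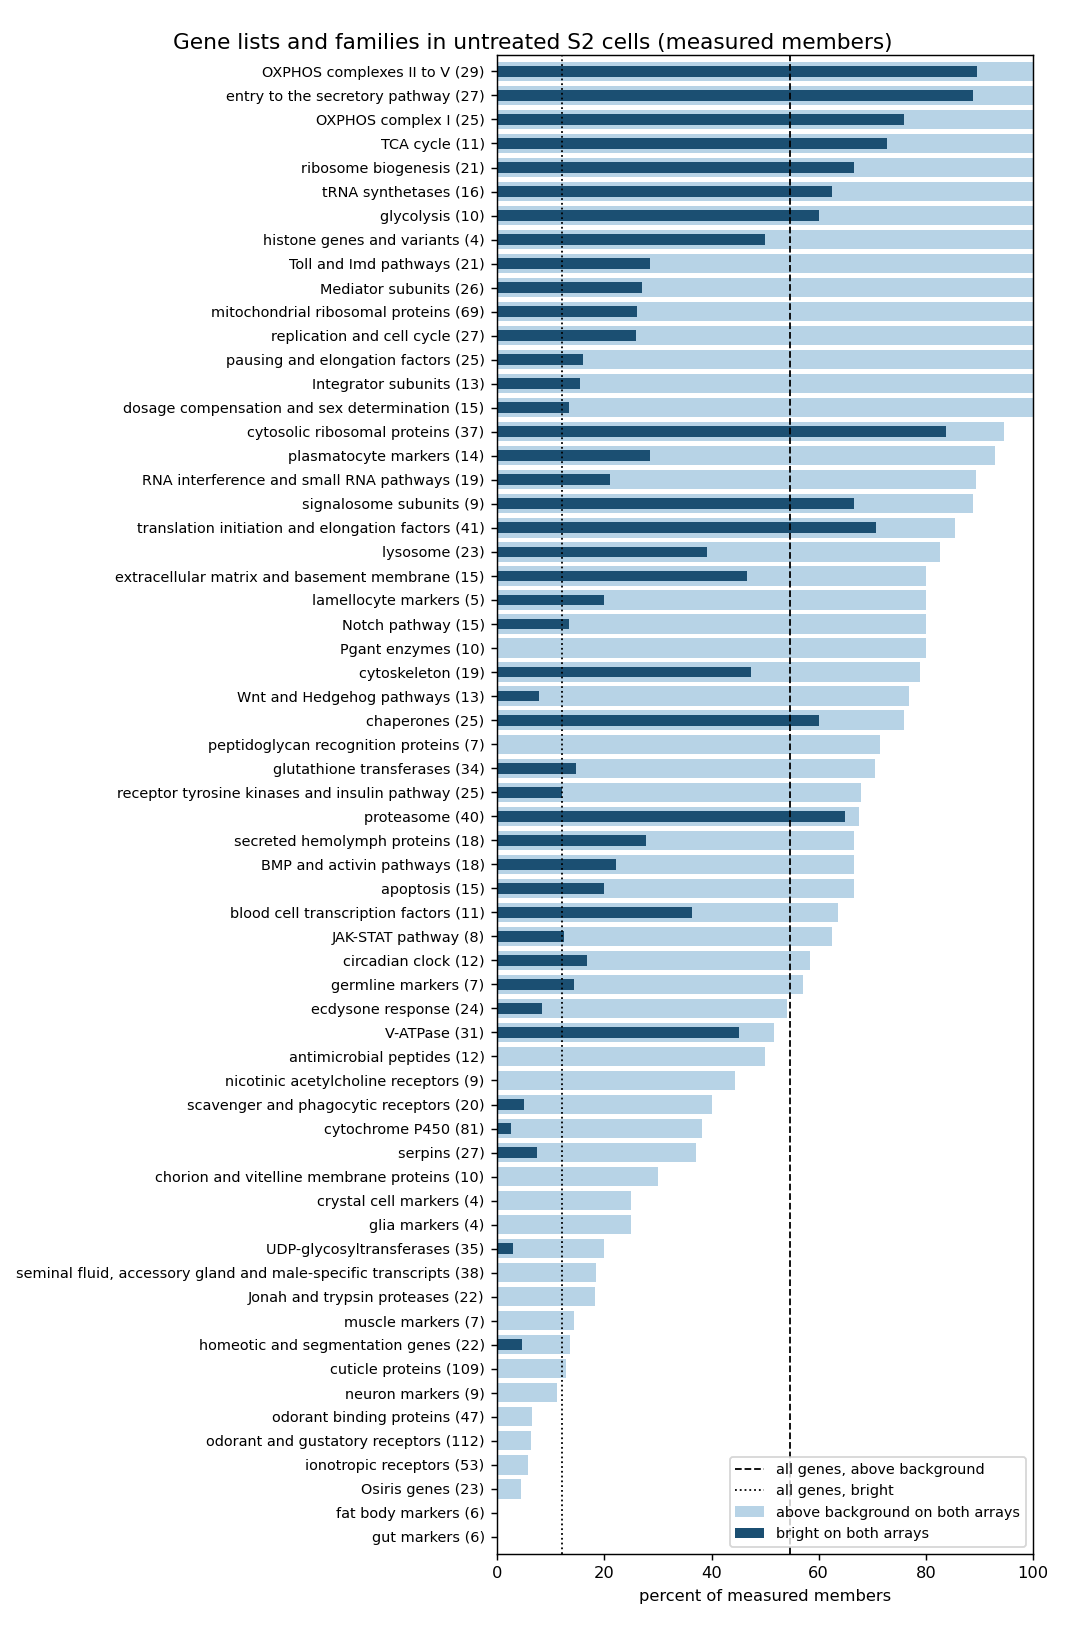
Percent of measured members (x axis; number measured in brackets) above background on both untreated arrays (light bars) and bright on both (dark bars) for every list with 4 or more measured members, with dashed and dotted lines at the 54.6% and 12.1% of all genes. Lists are ordered by the share above background and then by the share bright: 15 lists have every measured member above background, and fat body and gut markers have none. The secretory, lysosome and ribosome biogenesis lists were chosen after intensities were seen.

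Signal was also counted by kind of gene. Of 5209 genes known by a CG number 2182 (41.9%) were above background and 272 (5.22%) bright, against 4361 (64.4%) and 1183 (17.5%) of 6772 named genes. Of 77 long non-coding RNA genes 15 (19.5%) were above background and 2 bright, lncRNA:CR42862 at 3913 and 4783 and lncRNA:alphagamma-element:CR32865 at 2136 and 2087, against 6493 of 11781 protein-coding genes (55.1%). These shares were not tested, since genes are not replicates.

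Genes with signal were also counted among neighbours on the chromosome, against the 54.6% of all genes. Of the measured genes next to a gene above background on both arrays, 70.9% were above background too (9232 of 13030 neighbour pairs), and of those next to a gene on neither array 34.1% were (3021 of 8869). The longest uninterrupted stretch above background held 32 measured genes, ordered from Fa2h to CG30495 and including Inos, dpa, Orc1 and Vps13. The next held 24, from CG14811 to CG3587, with deltaCOP, MED18, trr and mRpL16. The longest stretch at background on both arrays held 16 genes, from CG15034 to CG12689. Stretches of 15 ran from CG16741 to Obp57e, with 4 odorant binding protein genes, and from Neurochondrin to Ass. Gene order is that of RefSeq, neighbours can overlap or share probe sequence, and the part of that in the result was not tested.

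For 1093 genes with several probe sets the reading could depend on which one was taken: 204 of them (18.7%) had 1 probe set above background on both arrays and another on neither. The one taken was that of the highest mean intensity on the 6 arrays. The widest gaps were at Ank, where 1 probe set gave 1618 and 1670 and another 0.482 and 0.345, and at RpS29, with 13047 and 11619 against 8.38 and 16.1. CG31145 had 3284 and 3138 against 1.68 and 3.43, CG1894 had 6267 and 6252 against 22.8 and 2.67, and Dys had 1102 and 1189 against 0.891 and 0.878. Dscam1, whose transcripts are spliced in many forms, had 3722 and 3954 on 1 probe set and 6.55 and 8.01 on another.

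Most genes with signal in untreated cells also had signal on the other arrays. Of the 6543 genes above background on both untreated arrays, 6068 (92.7%) were also above it on all 4 dsRNA-treated arrays and 32 on none of them. All 5240 genes at 100 or more were above background on all 4, as were 828 of the 1303 dimmer ones (63.5%). Of the 4499 genes on neither untreated array, 9 were above background on all 4 treated arrays and 3082 (68.5%) on none. Another 1039 (23.1%) were above it on 1 of the 4. Array medians lay between 13.88 and 14.15 for the untreated arrays and between 11.71 and 14 for the treated ones, and the background levels between 14.28 and 15.67 for the untreated arrays and between 9.64 and 20.69 for the treated ones.

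A test of untreated cells against the mean of the mock and NELF-depleted arrays called few genes. After quantile normalization, limma with an intensity-dependent prior (two-sided, Benjamini-Hochberg adjusted p under 0.05) called 23 of 11981 genes higher in untreated cells (0.192%) and 0 lower (0%), with 702 genes at an unadjusted p under 0.05. A fit that blocked on replicate number called 52 genes, 51 higher and 1 lower. Of the 23 genes 6 had both untreated arrays above all 4 treated ones, and 647 of all genes did. Regucalcin, a calcium-binding protein gene, gave 1204 and 1327 in untreated cells, against 905 and 724.9 on the mock and 296.2 and 208.5 on the NELF-depleted arrays, a log2 difference of 1.12 (SE 0.103, adjusted p = 0.00244). CG34417 gave 414.6 and 438.7 in untreated cells, against 373.6 and 211.7 on the mock and 75.18 and 73.41 on the NELF-depleted arrays, a log2 difference of 1.15 (SE 0.13, adjusted p = 0.00802). CG1998 gave 320.8 and 333 in untreated cells, against 287 and 193 on the mock and 62.8 and 68.5 on the NELF-depleted arrays, a log2 difference of 0.98 (adjusted p = 0.022). CG15209 gave 518 and 426 in untreated cells, against 395 and 274 on the mock and 124 and 87.7 on the NELF-depleted arrays, a log2 difference of 0.94 (adjusted p = 0.022). CG5888 gave 709.6 and 758 in untreated cells, against 569 and 434 on the mock and 223 and 162 on the NELF-depleted arrays, a log2 difference of 0.86 (adjusted p = 0.00958). In each of these 5 genes the NELF-depleted arrays were the lowest. Against the mock arrays alone limma called 0 genes, with 408 at an unadjusted p under 0.05, so no gene was shown to differ between cells without dsRNA and cells with control dsRNA. The count of 23 fell to between 1, without untreated replicate 2, and 11, without NELF-depleted replicate 1, when any 1 array was left out, and a single prior variance called 0, with 772 at an unadjusted p under 0.05.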

How the data were processed

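Per the series design text, Affymetrix Drosophila Genome 2.0 arrays were hybridised with labelled total RNA, scanned with GeneChip Operating Software 1.2.0.037 or Command Console 1.1, and imported into Rosetta Resolver 6.0. The authors deposited 1 linear intensity per probe set and array; how probes were summarised, scaled or background-corrected is not given in the sources used here. Groups come from the titles, 2 arrays each; the labels do not say that arrays of a group are separate cultures, so a p-value speaks only for the spread among these arrays, which may be technical.

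Presence used the deposited intensity within each array. Genes come from the platform annotation, with symbols updated by gene ID for 11893 of 11981 genes through the RefSeq table (Release 6 plus ISO1 MT), used for names, biotypes and gene order; no genome build is named for the files, so no position is given, and no sequence is shown. A gene was read by its probe set with the highest mean over the 6 arrays. For the test, log2(intensity + 0.819), with the 5th percentile of the table as offset, was quantile normalized, since array medians spanned 0.274 on the log2 scale. It was fitted with limma 3.58.1 in R 4.3.3 as 3 group means. The offset shrinks log2 differences mainly at intensities near 0.819, which lie below the background levels. Deviations of arrays with the same replicate number correlated at 0.126 (untreated and mock), 0.159 (untreated and NELF-depleted) and 0.107 (mock and NELF-depleted) over genes above background. The labels do not say what the numbers mark, and these values do not establish that they pair the arrays. A blocked fit was therefore run beside the unblocked one, which gave the main calls and the values of the named genes. On 5 simulated sets of 11981 genes with 200 changed, the share recovered was 40.6% for 1.5-fold, 66.6% for 2-fold and 94.5% for 4-fold changes. Of the simulated calls 3.46% were false. The simulated noise was independent between arrays and the changed genes were all above background. These shares therefore do not measure how many of the 23 genes called in the data are false.

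The members and 63 lists were chosen with earlier results of these data known; 3 lists were added after intensities were seen. Genes named are the 20 brightest; up to 4 brightest members and 3 exceptions of each list, or all of lists with at most 12; the 5 largest differences in each direction between the 2 untreated arrays and, among called genes without overlap, against the treated ones; the longest stretches of neighbours; and the 5 genes whose probe sets disagree most. Other genes were named after their values were seen. Alternatives were other background levels, scalings, offsets, priors, probe set choices, filters, the mock arrays alone, the block and leaving out each array.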

Additional observations from a re-analysis of the deposited data

Results flagged for a closer look

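Probe sets without exactly 1 gene in the annotation were left out of all gene counts above, and they carried signal. Of 5122 such probe sets, 1195 (23.3%) were above background on both untreated arrays and 296 (5.78%) were bright. These shares are below those of all 18769 non-control probe sets, 44.4% above background and 9.49% bright, and of the probe sets with 1 gene, 52.4% above background. Of these, 965 were among the 4720 probe sets that the annotation does not list (20.4%) and 230 among the 402 assigned to several genes (57.2%). The brightest unlisted probe set gave 17969 and 17267 on untreated replicates 1 and 2, and the next gave 17991 and 16820.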

How the results depend on the processing

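The count of 6543 genes above background ranged between 5724 of 10977 genes, without probe sets that can match several transcripts, and 7337, with the 75th percentile of the tag controls as the level; on 1 array alone it was 6959 to 7066. With the 95th percentile of intensity as the rule, 670 genes were bright. Over the 63 lists and 8 settings each, 471 of 504 counts above background stayed within 1.5 times the reported count. The other 33 did not, mostly in lists near background. With the 75th percentile, odorant and gustatory receptors had 22 in place of 7 and cuticle proteins 31 in place of 14. Chaperones had 11 in place of 19 without probe sets that can match several transcripts. Genes read only by such probe sets are not measured in that setting, among them Hsc70-3 and Hsc70-4. Counts there therefore also fall through lost measurement. The 23 genes called between untreated and dsRNA-treated arrays became 50 with intensities as deposited, which moved the median of all genes by 0.347 on the log2 scale, 22 with each array centred on its median (shift 0.18), 3 with an offset of 50 intensity units, 39 among genes above the median gene, 52 with the replicate block, 0 with a single prior variance, 0 against the mock arrays alone, and 1 to 11 with any 1 array left out. Of 65 results of the 5 named genes under these settings, 32 lost the call and none changed direction. Where a setting changes which arrays or genes enter the fit, that is its construction; otherwise the cause was not tested. Genes under an intensity of 100 are those whose calls the signal over background limits.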

Other observations

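Several bright genes belong to none of the lists described above; all were named after their values were seen. The zinc-finger gene jim gave 12509 and 11869 on untreated replicates 1 and 2, Arc1, a capsid-forming gene known from neurons, 10188 and 10231, the 14-3-3 protein gene 14-3-3epsilon 9642 and 10097, and Nacalpha, which binds nascent polypeptides, 10682 and 9655. The fatty acid synthase gene FASN1 gave 9139 and 7928, fabp, a fatty acid binding protein gene, 8986 and 8159, and Inos, which makes inositol phosphate, 7121 and 7052. The gene blanks, which encodes a double-stranded RNA binding protein known from the fly testis, gave 8170.1 and 7968. The ligand spi of the epidermal growth factor receptor gave 5795 and 6431, while the receptor Egfr was at background with 2.08 and 6.7. Among genes known by a CG number, CG1092 gave 9647 and 9101, CG15098 8977 and 9178, CG32276 8479 and 7525 and CG2852 7254 and 7388.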
